A study of Mus musculus with 9 samples.

Results

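Cells of the mouse auditory nerve that had been dissociated and grown to a confluent layer in serum were compared with the nerve from which such cultures are made. The members were the 3 arrays of cultured auditory nerve cells and the 3 arrays of auditory nerve tissue, 6 of the 9 samples of the study, chosen by their titles, and the 18193 genes that a probe set of the array names alone. The samples came from CBA/CaJ mice of either sex, aged 8 to 12 weeks, that had received no treatment. Nerve tissue was dissected and its RNA taken directly. For the cultured cells, dissected nerves were digested with trypsin and DNase, plated on poly-L-ornithine and fibronectin in DMEM/F12 with 10% fetal bovine serum and B27, and kept for 5 to 7 days until confluent. The remaining 3 arrays held neurospheres, which were made by moving cells of such cultures to serum-free medium with EGF, FGF and heparin for 12 days, and they are used below as a further reference. Whether a group's samples came from separate animals, pools or dishes is not in the labels, and the p-values therefore reflect a spread that may be technical.

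The auditory nerve holds the axons and, in the modiolus, the cell bodies of spiral ganglion neurons, which carry sound-evoked firing from the hair cells to the brainstem. Schwann cells wrap the peripheral axons and satellite cells wrap the neuron bodies, while oligodendrocytes and astrocytes take over on the brain side of a glial boundary that lies within the nerve. Fibroblasts, vessels, resident macrophages and the perineurial sheath fill the rest, and bone and the epithelia of the cochlea lie next to it. Spiral ganglion neurons do not divide, and mature Schwann cells rarely do unless they lose their axon, when they leave the myelinating state and turn on a repair programme. Adhesion to a stiff coated surface, spreading, and serum are known to drive cultured cells into division, into assembly of actin stress fibres, and into matrix secretion.

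Values are log2 signals of Affymetrix mouse genome arrays, so a difference of 1 is a doubling, and differences are given as cultured cells minus tissue. A gene passed where limma's Benjamini-Hochberg adjusted p over all 18193 genes was under 0.05 and the fold change was over 1.5. By that rule 3707 genes, 20.4% of those tested, were higher in cultured cells and 4011, 22.0%, were lower. These shares are the background for every count below, since a list with about 1 member in 5 on each side is like the array as a whole. The median difference over all genes was -0.01. Each gene is given by its brightest probe set, other probe sets are named where they passed in another way, and probe sets whose names mark them as matching several transcripts, of the same gene or of others, are called multi-transcript probe sets. Falls were larger than rises, with 374 genes lower by more than 4 and 133 higher by more than 4. Arrays of the same group correlated at 0.995 to 0.997 across genes, and arrays of tissue and cultured cells at 0.852 to 0.861. The median SD of a gene was 0.11 in tissue and 0.10 in cultured cells.

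A pair of measurements differed between the groups beside the gene programmes. The signal of the 3′ over the 5′ control probe sets, a sign of RNA integrity, was 2.71 ± 0.35 (SD, n = 3) for actin in tissue and 0.36 ± 0.037 (n = 3) in cultured cells, and for Gapdh it was 1.98 ± 0.46 (n = 3) and 0.19 ± 0.037 (n = 3). On this control the tissue arrays lay apart from all 3 cell arrays, and its part in the gene differences was not tested. Sex also moved with the groups. Eif2s3y, a Y-linked translation factor gene, read 9.46, 10.32 and 9.96 in tissue and 3.29, 3.53 and 3.19 in cultured cells. Xist, the X-linked RNA of female cells, read 12.04, 6.25 and 11.61 in tissue and 12.73, 12.69 and 12.80 in cultured cells. Each tissue array carried Y-linked signal. The tissue arrays with Eif2s3y at 9.46 and 9.96 were also bright for Xist, so male and female signal occurred together on them. The tissue array with Eif2s3y at 10.32 was the low one for Xist, at 6.25. All 3 cultures showed the female pattern, bright for Xist and with the 3 Y-linked genes at 2.56 to 3.53. Whether tissue samples pooled mice of both sexes was not tested, nor was the part of sex in other genes.

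Sequences from before the transcription start show the motifs that the classes of rising genes described below are known to share, and stretches of promoters were therefore read from RefSeq (GRCm38.p6). The windows searched ran from 250 bases before to 50 bases after each start, on both strands. TTTCGCGC or TTTGGCGC, forms of the E2F site, were present in 8 of 25 promoters of DNA replication genes, against 0.813% of all 32851 promoters. Genes of mitosis are known for a CCAAT box together with TTTGAA, the CHR element. CCAAT was found in 18 of their 24 promoters (37.4% of all promoters) and TTTGAA in 19 of 24 (17.9% of all). The CArG box, to which serum response factor (SRF) binds, stood in 10 of 27 promoters of actin stress fibre and SRF target genes, against 1.63% of all. In the 130 bases before the start that are printed here 5′ to 3′ for 7 genes, capitals mark the E2F site of Mcm6, the CCAAT box and the CHR element, in either orientation, of Cdk1, Kif11, Top2a and Prc1, and the CArG box of Cnn2 and Srf. These 7 were chosen because the motif lies in this stretch and after their values had been seen.
Mcm6, chr1:128359706-128359835 (- strand): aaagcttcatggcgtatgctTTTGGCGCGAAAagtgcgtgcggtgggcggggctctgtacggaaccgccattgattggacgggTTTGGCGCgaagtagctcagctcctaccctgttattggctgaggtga
Cdk1, chr10:69352913-69353042 (- strand): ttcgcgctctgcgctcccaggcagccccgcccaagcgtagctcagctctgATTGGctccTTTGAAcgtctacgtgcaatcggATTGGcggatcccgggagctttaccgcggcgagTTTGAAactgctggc
Kif11, chr19:37376252-37376381 (+ strand): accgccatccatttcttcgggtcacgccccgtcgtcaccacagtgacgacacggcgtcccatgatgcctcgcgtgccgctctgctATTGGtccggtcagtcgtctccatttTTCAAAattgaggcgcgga
Top2a, chr11:99024190-99024319 (- strand): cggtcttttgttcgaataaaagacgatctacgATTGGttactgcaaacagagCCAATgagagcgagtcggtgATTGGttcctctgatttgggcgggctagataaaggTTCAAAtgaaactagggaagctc
Prc1, chr7:80294346-80294475 (+ strand): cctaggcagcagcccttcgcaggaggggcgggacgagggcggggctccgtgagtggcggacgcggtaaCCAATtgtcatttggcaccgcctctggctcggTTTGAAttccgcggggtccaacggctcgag
Cnn2, chr10:79988470-79988599 (+ strand): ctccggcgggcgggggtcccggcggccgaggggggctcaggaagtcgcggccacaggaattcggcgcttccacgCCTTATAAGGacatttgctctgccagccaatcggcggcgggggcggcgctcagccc
Srf, chr17:46556163-46556292 (- strand): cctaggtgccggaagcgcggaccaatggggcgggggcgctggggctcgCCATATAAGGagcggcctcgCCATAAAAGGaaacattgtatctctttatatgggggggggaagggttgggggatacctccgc
Each of the 7 passed as higher in cultured cells. Fhl1, a LIM protein gene whose CArG box also lies in the 130 bases before its start, did not pass (-0.22) and is not printed. Mcm6, a subunit of the helicase that opens DNA for replication, was higher by 3.86. The differences were 5.57 for Cdk1, the kinase that starts mitosis, 5.75 for Kif11, a spindle motor, 6.83 for Top2a, which untangles chromosomes, and 5.03 for Prc1, a bundler of spindle microtubules. Cnn2, an actin-binding calponin, was higher by 3.97 and Srf itself by 1.61. A match of letters describes the stretch and does not show binding. The other motifs searched were GGAATG, the TEAD site, in 8 of 18 promoters of YAP and TEAD target genes (14.7% of all promoters), and TGACNNNGC, the antioxidant response element, in 5 of 20 promoters of NRF2 target genes (12.4% of all). The lists that hold targets of SRF, TEAD and NRF2 were drawn up partly by the factor itself. An excess of its site in them was therefore partly given in advance.

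**Figure D1:**
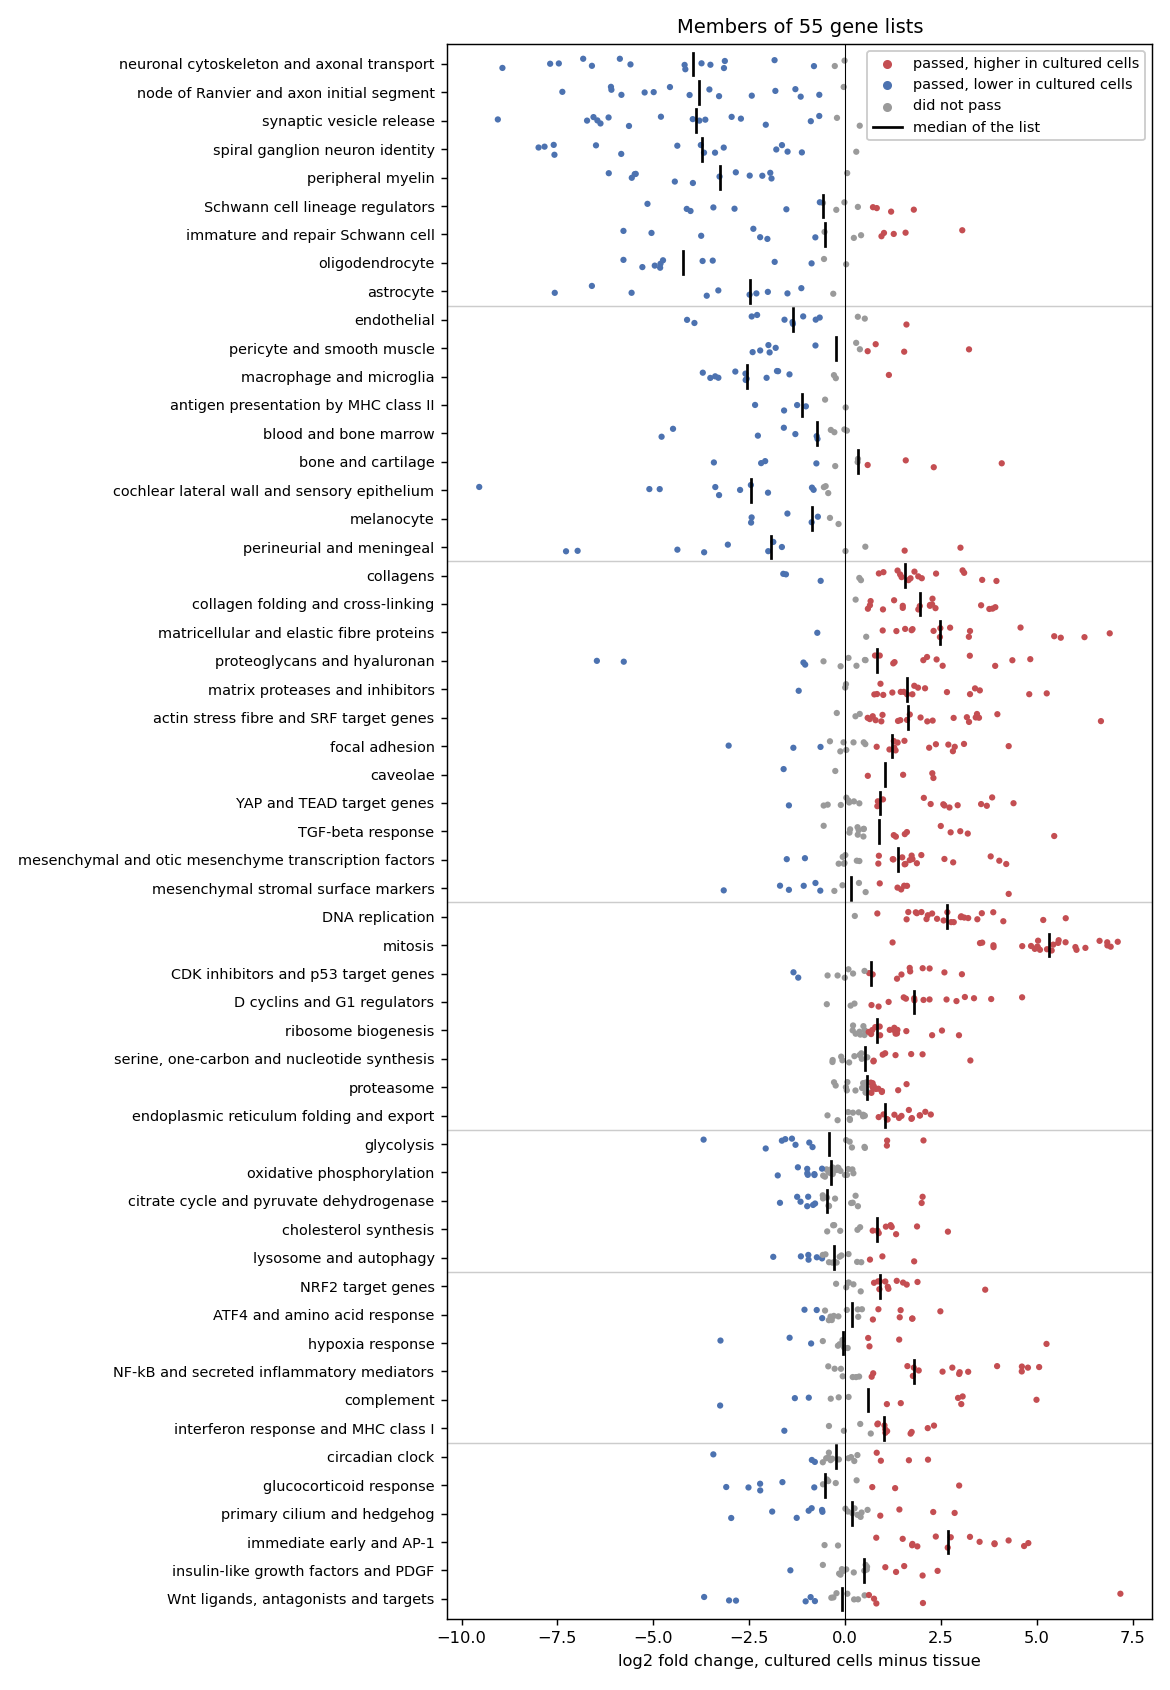
Difference between cultured cells and tissue (log2, x axis) for each measured member of 55 gene lists (rows), where a point is a gene, red and blue points passed as higher or lower and grey points did not, and the black bar is the list's median. Neuronal and myelin lists lie to the left, with medians from -3.96 to -3.27, and the list of mitosis genes lies farthest to the right, with a median of 5.32.

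Neuronal transcripts fell by more than those of any other lineage examined here except the oligodendrocyte list. Of 68 different genes in 4 lists of neuronal genes, 61 passed as lower and 1 as higher, with a median of -3.78. In whole samples, a loss of neurons and a lower amount of these RNAs per neuron cannot be told apart. Snap25, a protein of the synaptic fusion machinery, read 13.68, 13.87 and 13.79 in tissue and 4.72, 4.55 and 4.90 in cultured cells. It was among the brightest genes of the nerve and dim in every culture, a difference of -9.05 (SE 0.11, adjusted p = 4.35e-11). On all 3 tissue arrays, Nefh, the heavy neurofilament subunit, had the same value of 13.16, and in cultured cells it read 4.83, 3.98 and 3.87. Its difference was -8.93, and the groups did not overlap. What lies behind the identical tissue values was not tested.

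The list of neuronal cytoskeleton and axonal transport genes had 15 lower and 1 higher of 18 measured (median -3.96). Nefl, the light neurofilament subunit, had a difference of -7.69, Nefm, the medium subunit, -6.83, and Stmn3, a microtubule regulator of neurons, -7.46. Tubb3, the tubulin used as a neuron marker, read 11.03, 11.61 and 11.53 in tissue and 6.88, 7.5 and 7.29 in cultured cells (difference -4.17, SE 0.19). The groups were separate. Kif1a, a motor of synaptic vesicle precursors, and Prph, an intermediate filament protein of peripheral neurons, had -0.01 and -0.27 and did not pass, though another probe set of Prph passed as lower (-0.79). Both genes were dim in both groups, with means of 6.36 in tissue and 6.34 in cultured cells for Kif1a and 6.07 and 5.8 for Prph.

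Gap43 was the exception. It encodes a growth cone protein that denervated Schwann cells also make, and it read 5.49, 5.88 and 5.91 in tissue and 8.90, 8.86 and 8.69 in cultured cells. Each culture exceeded each tissue sample, by 3.05 on average (SE 0.12, adjusted p = 2.01e-08). It is measured by 1 probe set.

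Genes of conduction and transmission were lower too. Of 16 genes of the node of Ranvier and axon initial segment, 15 were lower (median -3.80). Kcna2, a potassium channel of the juxtaparanode, read 11.15, 11.30 and 11.37 in tissue and 4.04, 3.94 and 3.72 in cultured cells (difference -7.37, SE 0.11). It was dim in all 3 cultures and bright in all 3 tissue samples. Kcna1, which forms channels with it, had -6.09, the sodium channel subunit Scn4b -6.11 and the channel subunit Kcnab2 -5.83. Cntnap1, a protein of the paranodal junction, was dim in both groups (4.04 ± 0.18 and 4.0 ± 0.17, SD, n = 3 each) and gives no information. In the synaptic vesicle list 16 of 18 were lower (median -3.89), among them Cplx1, a clamp of vesicle fusion (-6.73), Slc17a6, the vesicular glutamate transporter VGLUT2 (-6.56), and Vamp1, a vesicle SNARE (-6.46). Cplx2 and Stx1a did not pass, at -0.21 and 0.38.

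Spiral ganglion neuron identity genes were lower in 15 of 16 cases (median -3.72). Calb2, the calcium buffer calretinin, read 13.47, 13.46 and 13.62 in tissue and 5.63, 5.54 and 5.40 in cultured cells (difference -7.99, SE 0.094). Pvalb and Calb1, a pair of further calcium buffers, had -7.84 and -7.58, and Elavl4, a neuronal RNA-binding protein, had -7.60. With these buffers every tissue array was bright and every culture dim. Ntrk3, the receptor for the neurotrophin that supports these neurons, behaved otherwise. It read 9.31, 9.20 and 9.16 in tissue and 9.58, 9.47 and 9.49 in cultured cells, and its difference of 0.29 (SE 0.084) did not reach the fold threshold. Of its 8 probe sets, 3 passed as higher and 2 as lower. Thy1, a surface protein of neurons and also of fibroblasts, passed as lower. It read 12.23 ± 0.10 in tissue and 9.07 ± 0.27 in cultured cells (SD, n = 3 each).

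**Figure D2:**
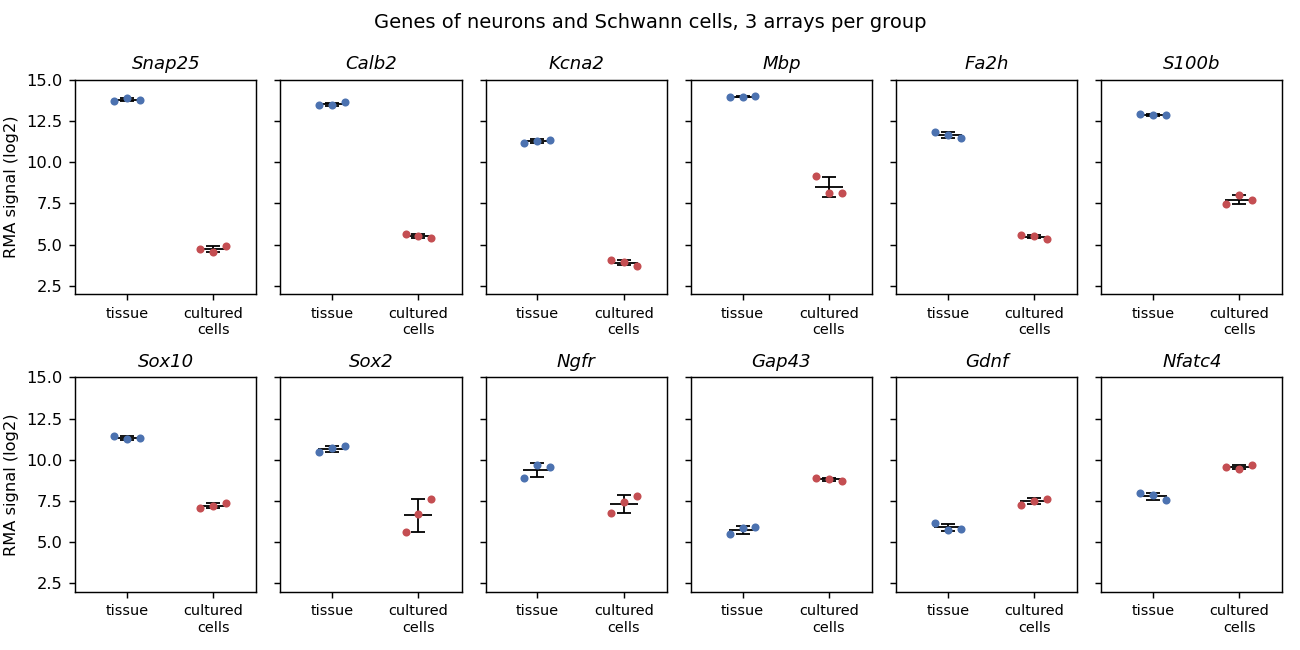
RMA signal (log2, y axis) of 12 genes of neurons and Schwann cells on each array of tissue and cultured cells (points), with the mean and SD of 3 arrays (black bars). Snap25, Calb2, Kcna2 and Fa2h lie near the bottom of the scale in culture, Sox10 and Ngfr lie between, and Gap43, Gdnf and Nfatc4 lie higher in culture than in tissue.

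Myelin transcripts were lower. Of 13 peripheral myelin genes, 12 passed as lower and none as higher, with a median of -3.27. Mbp, the basic protein that compacts the myelin membrane, read 13.93, 13.96 and 13.99 in tissue and 9.18, 8.13 and 8.12 in cultured cells. Cultured sample 1 was the highest of its group and the groups were still far apart (difference -5.49, SE 0.24, adjusted p = 3.64e-08), with all 8 probe sets lower. Fa2h and Ugt8a, enzymes of the myelin glycolipids, had -6.16 and -5.46, and Mal, a raft protein of myelin, -5.56. Others of the list fell less, with Pmp22 at -2.85, still at 10.76 in cultured cells, and Cldn19 at -1.92. In whole samples, myelin transcripts of Schwann cells and of oligodendrocytes cannot be told apart. Pmp2, a lipid carrier of peripheral myelin, was dim in both groups and overlapped, at 5.87, 6.38 and 6.43 in tissue against 6.83, 5.75 and 6.26 in cultured cells.

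Genes listed as regulators of the Schwann lineage did not share a direction. In whole samples, a change in the number of Schwann cells, in RNA per cell and in RNA from other cell types cannot be told apart. The same limit holds for the repair list below. Of 15 measured, 7 were lower, 4 higher and 4 did not pass (median -0.58). Sox10, the transcription factor that specifies the lineage, read 11.47, 11.27 and 11.30 in tissue and 7.06, 7.20 and 7.39 in cultured cells (difference -4.13, SE 0.11, adjusted p = 1.09e-09). The groups did not overlap, and its other probe sets had -1.99 and -0.37. S100b, a calcium-binding protein used to mark Schwann cells, had -5.15, and Erbb3, the neuregulin receptor that keeps Schwann cells alive, -3.44. Sox2, which holds Schwann cells immature, varied in culture, at 10.47, 10.72 and 10.82 in tissue and 5.60, 6.71 and 7.61 in cultured cells. Despite an SD of 1.0 in culture, each culture lay below each tissue sample (difference -4.03, SE 0.40). Going the other way, Nfatc4, a partner of Sox10 in calcium-dependent myelination, had 1.79, Zeb2, a repressor needed for Schwann differentiation, 1.20, and Erbb2, the co-receptor of Erbb3, 0.82. Yy1, a general transcription factor, had 0.72. Foxd3 and Tfap2a, factors of the early neural crest lineage, had -0.02 and -0.23 and did not pass. Both were dim in both groups, so a lack of change says little. Foxd3 had means of 5.54 in tissue and 5.52 in cultured cells, and Tfap2a 6.25 and 6.02. Zeb2 no longer passed when the probe sets of a gene were averaged.

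The repair Schwann cell list was as mixed, with 5 higher and 7 lower of 15. Gdnf, a growth factor for neurons that denervated Schwann cells release, read 6.15, 5.77 and 5.80 in tissue and 7.28, 7.53 and 7.65 in cultured cells (difference 1.57, SE 0.13). Bdnf, another such factor, had 1.27, and both lay higher in every culture than in any tissue sample. Ncam1, an adhesion molecule of non-myelinating Schwann cells, had 1.01. In contrast, Olig1, a transcription factor that denervated Schwann cells switch on and that oligodendrocytes also have, had -5.78, Shh, a secreted repair signal, -5.05, and L1cam, an adhesion molecule, -3.75. Ngfr, the low-affinity neurotrophin receptor p75, read 8.88, 9.69 and 9.55 in tissue and 6.75, 7.47 and 7.82 in cultured cells (difference -2.03, SE 0.28). Its groups did not overlap, and 1 of its 3 probe sets passed. Jun, the transcription factor at the head of the repair programme, had -0.54 and did not reach the fold threshold, while its other probe set was higher by 1.11. The median of this list was -0.54, and it was 0.29 when the probe sets of each gene were averaged.

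Transcripts of central glia were lower in 20 of 23 cases. Oligodendrocyte genes were lower in 10 of 12 cases with the lowest median of the cell type lists (-4.23). Mog, a surface protein of mature oligodendrocytes, read 7.5, 7.83 and 7.81 in tissue and 2.81, 2.94 and 2.92 in cultured cells (difference -4.82, SE 0.11). Ermn had -5.29 and Mobp -4.96, both proteins of the central myelin sheath. Of 11 astrocyte genes, 10 were lower (median -2.49). Aqp4, the water channel of astrocyte endfeet, read 10.48, 11.09 and 10.93 in tissue and 3.28, 3.26 and 3.25 in cultured cells (difference -7.57, SE 0.14). The cultures were dim for both genes and the groups far apart. Gfap, the glial intermediate filament, which non-myelinating Schwann cells also carry, had -2.02, and its other probe sets fell further, with -4.90 and -6.45. The gap junction protein Gja1, shared by fibroblasts and astrocytes, stayed bright at 12.35 ± 0.07 in tissue and 12.04 ± 0.34 in cultured cells (SD, n = 3 each), though another of its 6 probe sets was higher by 2.19.

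Transcripts of the other cell types of the nerve were lower to differing degrees. Of 15 macrophage genes, 12 were lower and 1 higher (median -2.57). Csf1r, the receptor macrophages need to survive, read 11.08, 11.12 and 11.21 in tissue and 7.41, 7.23 and 7.63 in cultured cells (difference -3.71, SE 0.11). The leukocyte phosphatase Ptprc had -3.39, the complement subunit C1qb -3.31 and the protease Ctss -3.52, and these genes were lower in each culture than in any tissue sample. Lyz2, a lysozyme of macrophages, was at 9.38, 9.36 and 10.30 in culture and overlapped with tissue, and the summed macrophage signal of cultured sample 3 was 11.55, against 10.87 and 10.91 in the other cultures and 13.05 to 13.35 in tissue. Cd14, a coreceptor for bacterial lipids that fibroblasts can also make, was higher by 1.14. Of 6 genes of antigen presentation by MHC class II, 4 were lower, with H2-Aa at -2.35, and of 11 genes of blood and bone marrow 7 were lower. S100a8 and S100a9, calcium-binding proteins abundant in neutrophils, had -4.79 and -4.49. Tissue sample 3 stood apart on this list, with a summed signal of 12.11 against 10.67 and 10.58 in the other tissue samples and 8.53 to 8.80 in culture, and the part of that sample in these differences was not tested.

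Endothelial genes were lower in 10 of 13 cases (median -1.36), including Cldn5, of the tight junctions of neural vessels (-4.12), and Vwf, the clotting factor stored by endothelium (-3.93). Emcn, the endothelial surface mucin endomucin, was higher by 1.6 and was the brightest of the list, and with it included the summed endothelial signal was 12.20 to 12.32 in tissue and 12.32 to 12.48 in cultured cells. Pecam1, which defines this cell type, fell from 4.94 to 3.84, and Kdr and Cdh5 had 0.51 and 0.33 and did not pass. Of 12 pericyte and smooth muscle genes, 6 were lower and 4 higher (median -0.24). Rgs5 and Abcc9, markers of pericytes, had -2.0 (another probe set of Rgs5 was higher by 1.03) and -2.41, and Myh11, the myosin of mature smooth muscle, read 6.16, 6.79 and 7.02 in tissue against 4.54, 4.38 and 4.40 in cultured cells. Cnn1, a calponin of smooth muscle and of contractile fibroblasts, was instead higher by 3.23, and Pdgfrb, the PDGF receptor of mural cells and fibroblasts, by 1.54. The members of this list did not share a direction.

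Transcripts of the tissue next to the nerve were lower too. Otos, otospiralin, a secreted protein of cochlear fibrocytes, read 13.88, 13.99 and 14.05 in tissue and 4.52, 4.33 and 4.46 in cultured cells. It was the largest fall of all genes (difference -9.54, SE 0.09). Of 13 genes of the cochlear lateral wall and sensory epithelium 10 were lower (median -2.46), with the anion exchanger pendrin, Slc26a4, at -5.10 and the potassium channel Kcnj10 at -4.83. Ptgds, the prostaglandin D synthase of the leptomeninges, read 14.42, 14.43 and 14.48 in tissue and 7.05, 6.96 and 7.49 in cultured cells (difference -7.28, SE 0.13). In the perineurial and meningeal list 8 of 12 were lower, while Aldh1a2, which makes retinoic acid, and the transcription factor Foxc1 were higher by 3.01 and 1.55. Melanocyte genes were lower in 5 of 7 cases.

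Bone and cartilage genes did not move together, with 4 higher and 4 lower of 11. Col2a1, the collagen of cartilage, read 9.07, 9.10 and 9.53 in tissue and 13.18, 13.32 and 13.44 in cultured cells (difference 4.08, SE 0.13). Acan, the proteoglycan that pairs with it in cartilage, did the reverse, at 9.47, 9.50 and 9.52 in tissue and 5.70, 6.27 and 6.25 in cultured cells (difference -3.42, SE 0.14). Neither gene overlapped between the groups. Alpl, the phosphatase of mineralising cells, was higher by 2.31, and Sost, a product of osteocytes, lower, with -2.08. The value of Dmp1, a matrix protein of osteocytes, changed sign without multi-transcript probe sets (-0.75 to 0.20).

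Matrix genes made up the broadest gain. Of 100 genes in 5 matrix lists, 79 were higher and 9 lower, with a median of 1.72, against 20.4% and 22.0% of all genes. Tnc, tenascin C, a glycoprotein of developing and wounded tissue, read 5.22, 5.40 and 6.08 in tissue and 12.37, 12.46 and 12.56 in cultured cells. It was dim in each nerve sample and bright in each culture, a difference of 6.90 (SE 0.19, adjusted p = 1.70e-09). The plates were coated with fibronectin protein, while Fn1, its gene, read 11.24, 11.49 and 11.39 in tissue and 13.84, 13.83 and 13.88 in cultured cells (difference 2.48, SE 0.09).

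Collagens were higher in 15 of 20 cases and lower in 3 (median 1.56). The largest rises were in Col5a1 (3.94) and Col5a2 (3.57), the chains that set the width of collagen fibrils, and in Col12a1 (3.10), which sits on their surface. Col1a1, the main fibril chain, read 7.59, 8.35 and 8.50 in tissue and 10.70, 11.28 and 11.65 in cultured cells (difference 3.06, SE 0.27). The 3 arrays spread by about 1 in each group without overlap. Col13a1 and Col14a1 had -1.61 and -1.54, and Col15a1, a basement membrane collagen, had -0.64, a call lost under several settings. The enzymes that fold and cross-link collagen rose almost as a block, with 18 of 19 higher (median 1.95), led by Plod2, which hydroxylates its lysines (3.92), and the cross-linking oxidases Loxl1 (3.84) and Lox (3.76). Each exceeded its tissue level on every array.

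Matricellular and elastic fibre proteins were higher in 16 of 18 cases (median 2.48). Thbs1, thrombospondin 1, had 6.24, Fbn2, a microfibril protein of embryonic tissue, 5.62, and Ltbp2, which binds to microfibrils, 5.45. Fbln1, a fibulin, had -0.73, which was lost when its probe sets were averaged. Proteases and their inhibitors were higher in 18 of 21 cases (median 1.61), including Timp1, an inhibitor of metalloproteases (5.26), and the metalloproteases Mmp13 (4.80) and Mmp3 (3.51). Mmp13 read 7.80, 9.29 and 10.03 in the cultures and 4.25, 3.93 and 4.54 in tissue, so that its spread in culture was wide and yet clear of tissue. Mmp9, a gelatinase, had 0.02 and was dim in both groups, with means of 5.09 in tissue and 5.11 in cultured cells. For proteoglycans the counts were 12 higher and 4 lower of 22. Vcan, versican, of provisional matrix, had 4.83 and Aspn, asporin, 4.36. Prg4, lubricin, read 10.91, 11.37 and 11.38 in tissue and 4.0, 4.55 and 5.71 in cultured cells (difference -6.47, SE 0.36), and Hapln1, which links hyaluronan to proteoglycans, had -5.77. These 4 show that the direction of a proteoglycan gene was not given by its class.

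Actin and adhesion genes rose next to the matrix. Of 24 actin stress fibre and SRF target genes, 21 were higher and none lower (median 1.65). Actg2, an actin of smooth muscle, read 4.51, 4.62 and 4.79 in tissue and 11.19, 11.34 and 11.40 in cultured cells. It was dim in every tissue sample and bright in every culture, a difference of 6.67 (SE 0.10, adjusted p = 7.46e-11). Cnn2 had 3.97, Tpm1, a tropomyosin that stabilises actin cables, 3.49, and Tagln, transgelin, 3.44. Acta2, the smooth muscle actin that marks myofibroblasts, was bright already in tissue, at 11.14, 11.09 and 11.28, and read 12.30, 12.68 and 12.83 in cultured cells (difference 1.44, SE 0.13). The groups stayed apart, but the probe set used is a multi-transcript one, and the others gave 1.84 and 0.14 at low signal. Fhl1 and Csrp1, LIM proteins, did not pass, at -0.22 and 0.27, and the other probe set of Csrp1 was higher by 1.66.

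Of 24 focal adhesion genes, 14 were higher and 3 lower. Itgb1, the integrin chain that pairs with most matrix-binding partners, read 7.91, 7.92 and 8.02 in tissue and 12.28, 12.19 and 12.18 in cultured cells (difference 4.26, SE 0.081), with 5 of 6 probe sets higher. All 3 cultures exceeded tissue by more than 4. Pdlim7 and Flna, which tie integrins to actin, had 3.10 and 2.86, whereas Tns1, a tensin of mature fibrillar adhesions, had -3.04 and Lims2 -1.35. Of 6 caveola genes, 4 were higher, with the coat protein Cavin1 at 2.30, and Cav2 was lower, with -1.60. Cav1, the main membrane protein of caveolae, had -0.26. Of 22 targets of YAP and TEAD, factors that respond to spreading and stiffness, 13 were higher and 1 lower, with Ankrd1 at 4.39, the receptor kinase Axl at 3.83 and Ccn1 at 3.69. Ankrd1 was dim in tissue, with 4.13, 3.88 and 3.86, and read 8.15, 8.32 and 8.56 in the cultures. Myof, at 3.54 in the same list, had -0.03 on its other probe set, which was dim. Of 18 TGF-beta response genes 9 were higher and none lower, led by Ltbp2 (5.45) and by Smad6 (3.2), an inhibitor of BMP signals. Il11, a cytokine induced by TGF-beta, had 0.11 and overlapped.

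**Figure D3:**
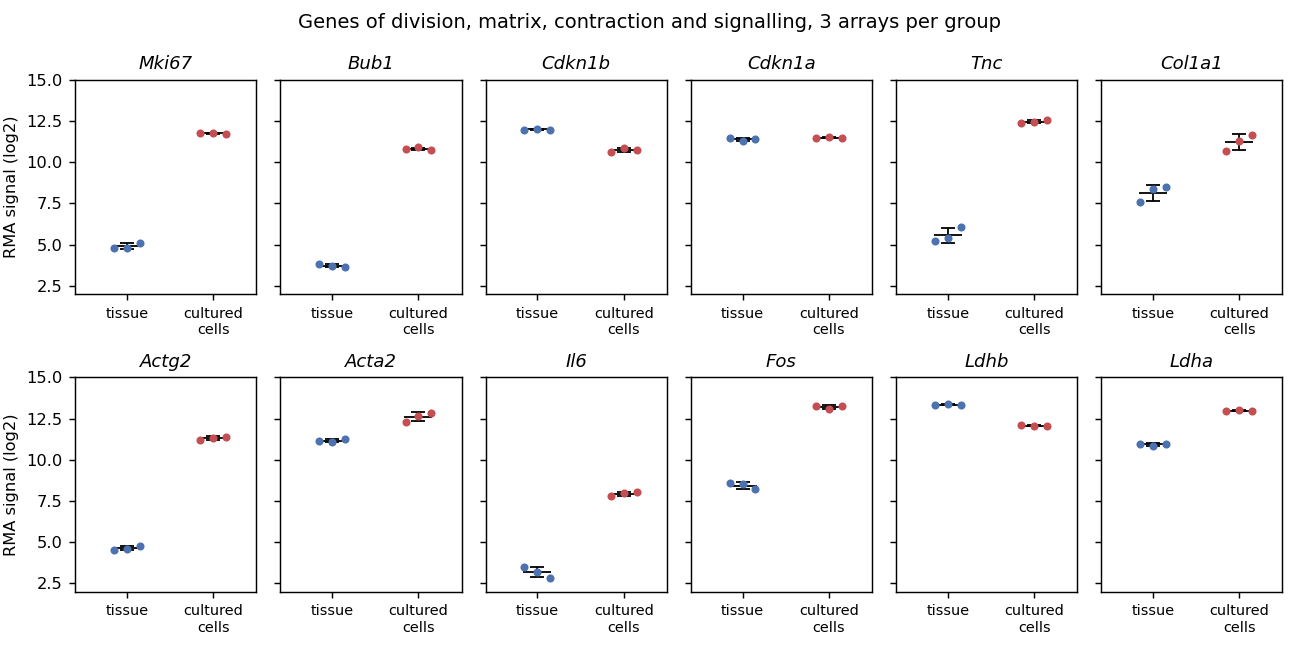
RMA signal (log2, y axis) of 12 genes of division, matrix, contraction, signalling and lactate metabolism on each array of tissue and cultured cells (points), with the mean and SD of 3 arrays (black bars). Mki67, Bub1, Tnc and Actg2 move from near the bottom of the scale to above 10, Cdkn1a stays at its tissue level on the probe set shown, and Ldhb and Cdkn1b lie lower in culture.

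Mesenchymal transcription factors were higher in 17 of 26 cases and lower in 2 (median 1.37). Osr1, a factor of intermediate mesoderm and connective tissue, read 7.29, 7.76 and 7.62 in tissue and 11.97, 11.63 and 11.66 in cultured cells (difference 4.20, SE 0.14). Prrx2, of head and limb mesenchyme, had 4.02 and Snai2, which represses epithelial genes, 3.79, each without overlap between the groups. Six2 and Zeb1 had -1.52 and -1.05, and the fall of Zeb1 was lost when its probe sets were averaged. Tcf21 and Meox1 had 0.01 and -0.02, and Tcf21 was dim, with a mean of 4.49 in each group. Surface markers of stromal cells did not follow, with 6 higher and 6 lower of 16 (median 0.15). Thy1, which fibroblasts share with neurons, had the largest fall of this list (-3.165). Cd34, of tissue-resident stromal cells, had -1.70, Nt5e, the surface nucleotidase CD73, -1.47, and Lepr, the leptin receptor, -1.08, of which the last 2 did not pass with averaged probe sets. S100a4 had 1.61. Pdgfra, a receptor of fibroblasts and glial progenitors, read 11.20, 11.32 and 11.27 in tissue and 11.88, 11.66 and 11.85 in cultured cells, and its 0.53 fell short of the fold threshold. Another of its 3 probe sets was higher by 2.71.

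Cell division was the most uniform gain. Of 69 genes in 3 lists of the cell cycle, 65 were higher and none was lower, with a median of 3.21. Mki67, a protein of dividing cells, read 4.80, 4.81 and 5.10 in tissue and 11.78, 11.74 and 11.70 in cultured cells (difference 6.84, SE 0.10, adjusted p = 6.58e-11). Bub1, a kinase of the spindle checkpoint, read 3.79, 3.71 and 3.62 in tissue and 10.80, 10.89 and 10.74 in cultured cells (difference 7.11, SE 0.087). Both genes were dim in nerve and bright in every confluent culture. All 26 mitosis genes were higher (median 5.32), with Birc5, survivin, at 6.92, and Bub1b, also of the checkpoint, at 3.52. Anln, a scaffold of the cleavage furrow, had the smallest rise, 1.24 from a tissue level of 10.34, and did not pass when its probe sets were averaged.

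DNA replication genes were higher in 24 of 25 cases (median 2.66). Rrm2, the ribonucleotide reductase subunit made in S phase, read 6.49, 5.84 and 5.92 in tissue and 11.67, 12.04 and 11.79 in cultured cells (difference 5.75, SE 0.17). Tk1, thymidine kinase, had 5.16 and Cdc6, which loads the replicative helicase, 4.12, and these genes were clear of tissue in every culture. Fen1, a flap nuclease, had 0.25 and did not pass, while its other probe set was higher by 2.06. Of 18 D cyclins and G1 regulators 15 were higher (median 1.80), with E2f7 at 4.61, E2f8 at 3.81, Ccnd1 at 3.36 and Ccnd2 at 3.12, while Rb1, the retinoblastoma gene, had 0.14 and 1.28 on its 2 probe sets. Mycn, of the same list, had 0.24 and did not pass, while another of its probe sets passed as lower (-1.94).

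The inhibitors of division did not form a common front. Of 18 CDK inhibitors and p53 target genes 10 were higher and 2 lower (median 0.67). Cdkn1a, the inhibitor p21, read 11.45, 11.30 and 11.43 in tissue and 11.46, 11.52 and 11.47 in cultured cells, a difference of 0.09 (SE 0.083, adjusted p = 0.394). It was bright in both groups on this probe set, and its other probe set was higher by 1.11. Cdkn1b, the inhibitor p27 of quiescent cells, read 11.94, 12.03 and 11.97 in tissue and 10.64, 10.87 and 10.76 in cultured cells (difference -1.22, SE 0.089). Cdkn2b, the inhibitor p15, went up from 5.52, 4.99 and 5.39 to 8.23, 8.44 and 8.36 (difference 3.04, SE 0.14). Cdkn1b and Cdkn2b thus moved in opposite directions. Cdkn2c, p18, had 2.59, and Cdkn2a, a gene known from senescent cells, went from 4.06 ± 0.16 to 4.68 ± 0.14 (SD, n = 3 each), dim in both groups. Among p53 targets Plk2 had 2.2, Sesn1 -1.35 and Zmat3 -0.01.

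Genes of growth and protein output were higher in smaller steps. Ribosome biogenesis had 16 of 24 higher and none lower (median 0.84), with Nop58 at 2.97 and Ncl, nucleolin, at 2.27. In the endoplasmic reticulum list 14 of 24 were higher and none lower, among them the disulfide isomerases Pdia6 (2.23) and Pdia3 (2.09), while Calr and Canx, the lectin chaperones, had 0.08 and 0.12, and another probe set of Canx was higher by 1.79. Of 25 proteasome genes 12 were higher, led by Psma4 (1.6), and none was lower. Serine, one-carbon and nucleotide synthesis had 8 of 18 higher, with Ctps, which makes CTP, at 3.26 and Phgdh, the first enzyme of serine synthesis, at -0.07. Cholesterol synthesis had 9 of 15 higher, with Fdps at 2.68 and Srebf2, the transcription factor of the pathway, at 1.87. None of these 5 lists held a member that passed as lower.

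Genes of respiration held few rises and leaned lower. Of 46 genes of oxidative phosphorylation and the citrate cycle 15 were lower and 2 higher (median -0.41). Of all genes 22.0% were lower and 20.4% higher. In oxidative phosphorylation 8 of 28 were lower and none higher, led by Ndufs7, a subunit of complex I (-1.76). Without multi-transcript probe sets 5 were lower and 1 was higher. In the citrate cycle list 7 of 19 were lower, with the kinase Pdk2, a brake on pyruvate dehydrogenase, at -1.70 and the dehydrogenase subunit Idh3b at -1.25, whereas Pdk3, a kinase of the same family, had 1.99 and Idh2 2.02.

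Glycolysis was divided, with 8 lower and 3 higher of 16. Ldha, the lactate dehydrogenase subunit of glycolytic cells, read 10.97, 10.85 and 10.98 in tissue and 12.95, 13.01 and 12.97 in cultured cells (difference 2.04, SE 0.081). Ldhb, the subunit of oxidative tissue, read 13.32, 13.38 and 13.35 in tissue and 12.10, 12.06 and 12.07 in cultured cells (difference -1.27, SE 0.076), with all 4 probe sets lower. Neither gene overlapped between the groups, and their directions were opposite. Pfkm, the muscle and brain form of phosphofructokinase, had -2.07, and Slc2a1, the glucose transporter GLUT1, -1.65. Slc2a3, the neuronal glucose transporter, had -3.69 on the brightest of its 4 probe sets, -3.63 on another and 0.12 and 0.18 on the 2 dimmest. Without multi-transcript probe sets 5 members of the list were lower. Lysosome and autophagy genes were 3 higher and 6 lower of 20, with Gabarapl1, of autophagosomes, at -1.87 and the protease Ctsz at 1.80.

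Related genes were compared as pairs, each a gene listed as a neural form with a relative listed as a general form. The labels are loose for some pairs. Ldhb, listed as a neural form, is the subunit of oxidative tissue, and Ndrg1, listed as a general form, is abundant in Schwann cells. The counts below follow the labels as listed. The pairs were chosen with earlier results of these data known, and 44 of the 51 listed were measured. In 12 of 44 pairs the neural form was lower and the general form higher, and in 1, Ncam1 and Alcam, it was the reverse, where the call of Alcam was lost under several alternatives. Neural forms were lower in 30 of 44 cases (median -2.42), and general forms were higher in 19 and lower in 10 of 43 different genes (median 0.50). The general form rose most in the tubulins, where Tubb3 had -4.17 and Tubb6, a tubulin of non-neural cells, had 5.06, from 6.29, 6.64 and 6.74 in tissue to 11.51, 11.75 and 11.58 in cultured cells. Snap25 had -9.05 and Snap23, its counterpart in other cells, 1.12. The same held for the dynamins Dnm1 and Dnm2 (-5.38 and 0.64), the G protein subunits Gng3 and Gng12 (-5.33 and 1.39), the RNA-binding proteins Elavl4 and Elavl1 (-7.60 and 1.25), the S100 proteins S100b and S100a6 (-5.15 and 2.34), the lipid carriers Fabp7 and Fabp5 (-1.61 and 1.59), the tubulins Tubb4a and Tubb5 (-2.66 and 1.68) and the actin regulators Cap2 and Cap1 (-2.19 and 1.28), and for Ldhb and Ldha as given above. For Gnao1 and Gnai3 (-2.65 and 0.99) and for Hk1 and Hk2 (-1.39 and 1.09) the neural member depended on the probe set, since the other probe sets of Gnao1 had -0.65 and 0.28 and the other probe set of Hk1 was higher by 0.8. Of the 6 probe sets of Elavl1 3 passed as higher and 2 as lower. Another probe set of Dnm2 passed as lower (-0.75), and Dnm2 lost its call under several alternatives.

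**Figure D4:**
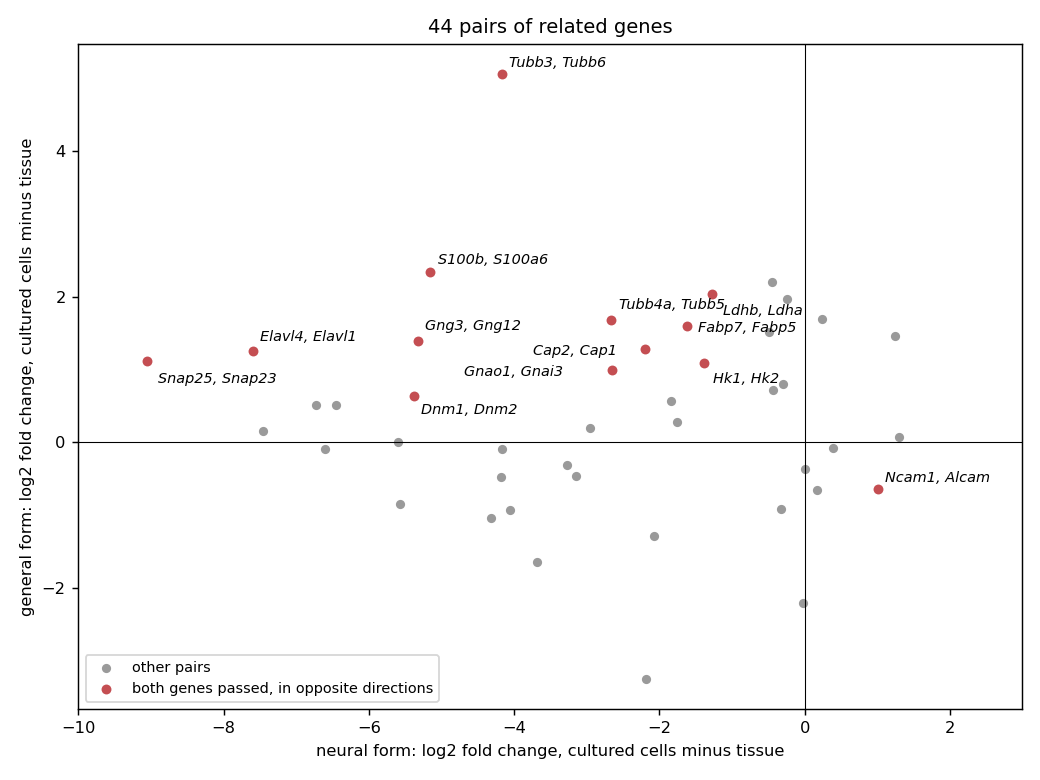
Difference between cultured cells and tissue (log2) for the neural form (x axis) and the general form (y axis) of 44 pairs of related genes, each pair a point. The 13 red pairs passed in opposite directions, 12 of them with the neural form lower and the general form higher, and Tubb3 with Tubb6 lies highest, at -4.17 and 5.06.

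Stress and inflammatory genes rose in part. Of 17 immediate early and AP-1 genes, which serum is known to induce within minutes, 15 were higher and none lower (median 2.67). Against the serum-free neurospheres 6 of the 17 were higher in cultured cells and 4 lower (median 0.23). The shares of all genes in that comparison were 8.91% and 9.0%. Fos read 8.58, 8.52 and 8.23 in tissue and 13.29, 13.09 and 13.27 in cultured cells (difference 4.78, SE 0.11, adjusted p = 6.70e-10), and Egr1, another of these transcription factors, 9.35, 9.91 and 9.62 against 13.56, 13.45 and 13.56. Both were high in every culture although the cells had been kept for days. Fosb had 4.67 and Fosl2 4.26. Jun and Jund, the partners of Fos, had -0.54 and -0.19.

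Of 23 genes of NF-kB and secreted inflammatory mediators 16 were higher and none lower (median 1.79). Il6, the cytokine interleukin 6, read 3.47, 3.20 and 2.85 in tissue and 7.79, 7.97 and 8.05 in cultured cells (difference 4.76, SE 0.15). Ccl2, which attracts monocytes, read 3.94, 4.32 and 5.03 in tissue and 9.47, 9.59 and 9.40 in cultured cells (difference 5.06, SE 0.23). The groups of both genes were far apart. Ptgs2, the inducible cyclooxygenase, had 4.61 and Ccl7 4.60. Ptx3, a secreted pentraxin, had 7.28, the largest rise once predicted genes and genes with overlapping groups were left out. Birc3 and Ccl20, also NF-kB targets, had -0.11 and -0.06. Complement genes were 6 higher and 3 lower of 12, with the proteases Masp1 (4.99) and C1s1 (3.06) up and Cd59a and Cd55, which shield cells from complement, at -3.26 and -1.31. The median of that list, 0.59, was -0.04 without multi-transcript probe sets. Of 15 interferon response and MHC class I genes 10 were higher and 1 lower, with the immunoproteasome subunit Psmb8 at 2.32 and Rsad2, viperin, at -1.58. Without multi-transcript probe sets 5 were higher.

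Oxidative stress targets of NRF2 were higher in 12 of 18 cases with none lower (median 0.90), and Hmox1, heme oxygenase, had 3.65. Of 20 ATF4 and amino acid response genes 7 were higher and 3 lower, with Cebpb at 2.48, Atf3 at 1.75 and Ddit4 at -1.06, and of 13 hypoxia genes 4 were higher and 3 lower. Adm, adrenomedullin, a vasodilator peptide that low oxygen induces, read 7.00, 7.07 and 6.97 in tissue and 12.21, 12.33 and 12.24 in cultured cells (difference 5.25, SE 0.081), while Ndrg1, also induced by low oxygen and abundant in Schwann cells, read 12.74, 12.89 and 12.96 in tissue and 9.62, 9.71 and 9.52 in cultured cells (difference -3.25, SE 0.094). The groups of each gene did not overlap, and the members of this list did not share a direction.

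Hormone, rhythm and growth signals changed gene by gene. Of 14 glucocorticoid response genes 6 were lower and 3 higher. Tsc22d3, GILZ, a direct target of the glucocorticoid receptor, read 11.86, 12.09 and 11.98 in tissue and 8.80, 8.87 and 8.97 in cultured cells (difference -3.10, SE 0.093). The groups were separate, and 3 of its 4 probe sets passed as lower. Glul, glutamine synthetase, had -2.22, and Fkbp5 and Sgk1, further targets of the receptor, -0.24 and 0.30. In the circadian clock list 4 of 18 were higher and 3 lower, close to the shares of the array. Npas2, a clock activator, had -3.44 and Nfil3, a repressor, 2.16, and Clock and Dbp had 0.09 and -0.58, with another of the 4 probe sets of Clock at -1.30. Sampling time was not given in the sources used here.

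For the primary cilium and hedgehog pathway the counts were 4 higher and 7 lower of 19. The transcription factors Gli3 and Gli2 had 2.85 and 2.30, and Ptch1, the receptor and target of the pathway, read 10.68, 10.90 and 10.82 in tissue and 8.61, 8.95 and 9.14 in cultured cells (difference -1.90, SE 0.14), with Kif3a, a ciliary motor, at -2.97. Every culture was below tissue for Ptch1. In the Wnt list 5 were higher and 6 lower of 18, and 3 were higher without cultured sample 2. Sfrp2, a secreted Wnt antagonist, read 5.08, 4.54 and 4.88 in tissue and 12.04, 11.87 and 12.11 in cultured cells (difference 7.17, SE 0.14). This was the second largest rise in the ranking that Ptx3 led, and Sfrp5, a relative of Sfrp2, had -3.68. Lgr5, a receptor of Wnt-responsive progenitors, had -3.03. Insulin-like growth factor and PDGF genes were 5 higher and 1 lower of 17, with Igf1 at 2.41, Igfbp2 at 2.02 and Igfbp6 at -1.43. The first of these counts was 11 when the probe sets of a gene were averaged and 8 without cultured sample 2.

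Neurospheres, which had left such cultures for serum-free medium, gave a further reference. The comparison of cultured cells with neurospheres uses the same 3 cultured arrays as that with tissue, so the counts are set side by side and no overlap is drawn from them. Against neurospheres, 1621 genes, 8.91%, were higher in cultured cells and 1638, 9.0%, lower. All 26 mitosis genes were higher in cultured cells than in neurospheres, and Mki67 was 9.71 ± 0.26 (SD, n = 3) in neurospheres against 11.74 ± 0.04 in cultured cells. Of 24 actin stress fibre genes 16 were higher and none lower than in neurospheres. Actg2 was at 7.28 ± 0.69 there, below the 11.31 ± 0.11 of cultured cells, and Acta2 at 7.67 ± 0.40, below both cultured cells and tissue.

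Inflammatory mediators went in the opposite sense. Of the 23 genes of that list 18 were lower in cultured cells than in neurospheres, and Ccl2 was at 12.69 ± 0.17 (SD, n = 3) in neurospheres against 9.49 ± 0.10 in cultured cells. For Ccl2 the cultured cells thus lay between tissue and neurospheres, with no overlap. The 4 neuronal lists had medians of -0.04 to 0.11 between cultured cells and neurospheres. Of their 68 genes 11 were higher and 8 lower in cultured cells than in neurospheres. Snap25, at 7.78 ± 0.71 (SD, n = 3) in neurospheres against 4.72 ± 0.17 in cultured cells, and Ntrk2, the receptor for Bdnf (-3.16), were lower, and Stmn2, a microtubule regulator of growth cones (2.60), and the neuregulin gene Nrg1 (1.82) were higher. Aspn and Prg4 parted in opposite directions, Aspn at 3.50 ± 0.46 and Prg4 at 11.78 ± 0.37 in neurospheres, against 10.74 ± 0.25 and 4.75 ± 0.87 in cultured cells. Elobl, which rose by 6.97 between tissue and cultured cells, was as dim in neurospheres (4.13 ± 0.21) as in tissue (3.92 ± 0.07).

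**Figure D5:**
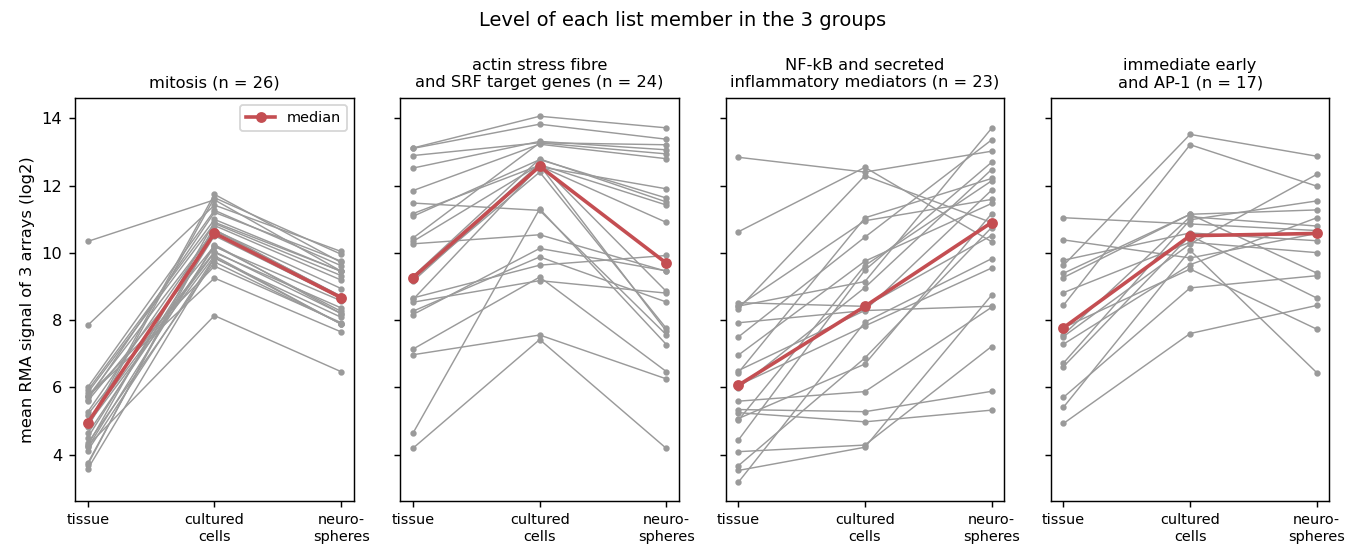
Mean RMA signal of 3 arrays (log2, y axis) of each member (grey lines) of 4 gene lists in tissue, cultured cells and neurospheres (x axis), with the median of the members in red. The medians of mitosis and actin genes are highest in cultured cells, that of inflammatory mediators is highest in neurospheres, and the lines join the same gene and show no order in time.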

How the data were processed

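The deposited values are log2 signals. Per the labels, the authors summarised each array with the RMA method of Affymetrix Expression Console, and MAS5 is named too. Versions are not given in the sources used here. They were used as deposited (array medians 6.15 to 6.27), and no filter on low values or pseudocount was applied. Of 45101 probe sets 64 were controls, and 34945 named 1 gene, 932 several and 9160 none. Each of the 18193 genes was read from the brightest, over the 9 arrays, of the probe sets naming it alone, and 9010 genes had more than 1. Symbols were updated with the RefSeq gene table of GRCm38.p6, and 162 were kept as given. RMA brings all arrays to 1 distribution, so differences are relative to the whole array, and the number of arrays limits the precision. A 3′-primed labelling of 100 ng RNA makes probe sets far from the 3′ end sensitive to RNA integrity.

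Cultured cells were compared with tissue, and with neurospheres, in limma 3.58.1 (R 4.3.3, lmFit and eBayes, 2-sided) on the 6 arrays of each comparison, without the replicate number. A t-test, which the methods name, was among the alternatives, with other centring, quantile normalization, averaged probe sets, multi-transcript probe sets (name endings _a_at, _s_at and _x_at) left out, other thresholds and each array left out. On simulated arrays of 18193 genes, 91% of genes changed by 1 and 100% of those changed by 2 (log2) were recovered in the comparison with tissue. The simulation had independent noise, no difference in RNA integrity, and far fewer changed genes than the 42.4% that passed here. Its rates may therefore not hold for the real arrays. The members and the 56 gene lists, which held 932 different genes and 954 of 1019 memberships (the other 65 were not analysed here), were chosen with earlier results of these data known. Genes named were, per list, up to 4 with the largest change, up to 4 that passed against the majority and up to 2 with the smallest change. The 10 largest rises and falls were also named, leaving out predicted genes and genes whose groups overlapped. Isoform pairs that passed in opposite directions and fixed markers were named too. Pecam1, Pmp22, Cdk1, Kif11, Prc1, Srf, Ntrk2 and Stmn2 fall outside these rules and were chosen after their values were seen.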

Additional observations from a re-analysis of the deposited data

How the results depend on the processing

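Direction and call of the named genes held under most alternatives. Of 6537 values of 416 named genes under the alternatives 6408 kept their direction and their side of the threshold, 72 lost the call, 52 gained it, and 5 turned: without multi-transcript probe sets Dmp1 had 0.20, Myof -0.03, Slc2a3 0.12, Wars 0.10 and Gnao1 0.28. The cause was not tested. Of the 313 named genes that passed, 276 kept the call under every alternative. The number of genes higher in cultured cells than in tissue was 5705 with no fold threshold, 2214 with a fold over 2 and 8387 with every probe set on its own, and the number of genes lower in cultured cells than in tissue was 6899 with every probe set on its own and 2667 with the dimmest 40% left out, where fewer genes were tested. There were 2879, 866 and 3281 genes higher in cultured cells than in neurospheres with no fold threshold, a fold over 2 and every probe set on its own, and 3488, 752 and 2846 genes lower in cultured cells than in neurospheres. Leaving out 1 array gave 3683 to 3774 higher and 4002 to 4047 lower against tissue, and 1574 to 1686 and 1587 to 1683 against neurospheres. Of 1792 counts of list members 65 moved by over 1.5 times. Without tissue sample 1 or 2 or cultured sample 1 or 3, 1 TGF-beta response gene and 2 YAP and TEAD target genes were lower, as were 2 insulin-like growth factor and PDGF genes, and without cultured sample 3, 1 immediate early gene was lower. With centring, 2 hypoxia genes were higher in place of 4. Centring each array on the median of its brighter genes shifted the median of all genes to -0.09 and gave 3357 higher and 4408 lower. The methods' t-test with Benjamini-Hochberg adjustment gave 3633 and 3929.

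Samples with the same replicate number in tissue and cultured cells deviated together with correlations of 0.206, 0.0691 and 0.127. In cultured cells and neurospheres these were -0.103, -0.190 and 0.0398. Between unlike numbers the correlations ran from -0.173 to 0.0845 with tissue and from -0.0859 to 0.209 with neurospheres. With 3 arrays per group these values cannot decide whether samples of the same number share a source. With the replicate block 3713 genes were higher and 4014 lower than in tissue, 1613 higher and 1640 lower than in neurospheres, and no call against tissue was lost. Sample 2 of cultured cells correlated better with tissue sample 3 than with its own number.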

Other observations

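Among genes with more than 1 probe set, 2149 passed as higher and 2369 as lower. Every probe set had the same call for 887 and 672 of these, and another probe set passed in the opposite direction for 184 and 335. The groups of 12 higher and 11 lower genes overlapped despite the call.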
